A study of Mus musculus with 4 samples.

Results

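The cytokine genes Lif, Il6, Il11, Il15, Csf2, Tnf and Tnfsf11 and the receptor gene Il15ra were followed in mouse embryonic 3T3 fibroblasts, an immortal line, on 4 arrays. The groups were basal cells and cells given tumour necrosis factor (TNF) for 0.5, 2 or 12 h, with 1 array each and no further allele or agent in any of them. All cells had grown in normal medium for 24 h and then overnight in 0.5% serum. The protocol gives a TNF concentration of 10 ng/ml for 0.5 and 12 h; for 2 h it repeats the basal text, and the title and source name place that array at 2 h of TNF. The members were taken as every probe set annotated to 1 of these 8 genes, which gave 11 of the 45101 probe sets and 8 of 18193 named genes. Lif, Il15ra and Tnfsf11 had 2 probe sets each and the other 5 genes had 1.

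TNF binds a receptor on fibroblasts that activates the transcription factor NF-kB and the MAP kinases, which feed AP-1, and both act on many cytokine genes. LIF, IL-6 and IL-11 signal through a shared receptor chain, gp130, to JAK kinases and STAT3, whereas IL-15 is held at the cell surface by its own alpha receptor and shown to neighbouring lymphocytes. GM-CSF (Csf2) supports myeloid cells, and RANKL (Tnfsf11) on stromal cells drives osteoclast formation. Messenger RNAs of several of these cytokines are known to be short-lived, and the title of the series concerns how mRNA stability orders inflammatory induction; the arrays measured RNA levels and not stability.

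With 1 array per group there was no spread between replicates, so no test was possible and no p-value is given. The 30th percentile of all values (9.07) served as a floor for lower signals, and where one side of a ratio lay at it the ratio is a bound, written "at least". "Higher", "rose", "lower" and "fell" denote a ratio to basal of at least 2-fold, and a signal is called clear from the 75th percentile of all values (102). The median log2 ratio to basal over the 16274 analysed genes was -0.03 at 0.5 h, -0.09 at 2 h and -0.14 at 12 h. As a sign of RNA quality, signal at the 3' end over that at the 5' end was 1.21 to 1.26 for Actb and 0.736 to 0.776 for Gapdh. The signal at the 5' end of 18S ribosomal RNA was 382, 273 and 263 on the TNF arrays, by time, and 462 on the basal one; its part in the results was not tested. Cells left untreated in low serum for the same further hours were not analysed here, so effects of TNF and of that time cannot be told apart, and in bulk RNA neither can a change per cell and a change in the share of cells.

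Fibroblast markers had clear signals for 7 of 10 genes, among them Col1a1, Col1a2 and Vim, while Thy1, Dcn and Lum had no signal above 20.7. Among these low ones Lum was higher at 0.5 and 12 h and Dcn lower at 0.5 and 2 h; their part in the cytokine values was not tested. Of 9 leukocyte markers with a probe set, Ptprc, Itgam and Cd3e lay under the floor on all 4 arrays. Csf1r, Adgre1, Cd68 and Lyz2 lay above it on all 4 with no signal over 69.3. Cd14 alone reached a clear signal, with values between 93.5 and 111. The summed signal of the leukocyte list was 269, 240 and 251 on the TNF arrays, by time, and 232 on the basal one. Of its 6 analysed genes 0 passed 2-fold, which is no result about them, as 2.57%, 2.59% and 2.81% of all genes rose. Lyz2 came nearest, with log2 ratios of 0.72, 0.82 and 0.97, and its part in the cytokine values was not tested. Osteoblast markers (3 genes) stayed at a summed signal between 46.6 and 62.3. Of 3 adipocyte markers analysed, the lipid-binding gene Fabp4 had signals from 1450 to 1886. The other adipocyte markers were low, with highest signals of 12.8 for Adipoq and 41.4 for Pparg.

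RefSeq promoter windows (GRCm38.p6, 250 bases before to 50 after each start) were found for 7 of the 8 genes, in 9 windows; Il15 had none in the table. They were searched on both strands for an NF-kB consensus of 10 letters, for the AP-1 site TGAGTCA and for TATAAA. Stretches with NF-kB or AP-1 are shown because these are the factors that TNF is best known to activate. Those of Tnf and Tnfsf11 hold TATAAA alone. The AP-1 match of Lif, TGACTCA, is TGAGTCA on the other strand. Capitals mark the matches, 5′ to 3′ on the gene's strand.
Lif, chr11:4257333-4257408, plus strand, AP-1 then NF-kB: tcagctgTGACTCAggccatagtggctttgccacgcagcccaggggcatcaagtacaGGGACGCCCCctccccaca
Il6, chr5:30013054-30013093, plus strand, NF-kB: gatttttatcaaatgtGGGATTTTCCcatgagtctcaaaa
Il11, chr7:4778217-4778256, minus strand, AP-1: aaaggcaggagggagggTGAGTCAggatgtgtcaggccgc
Il15ra, chr2:11705662-11705701, plus strand, AP-1: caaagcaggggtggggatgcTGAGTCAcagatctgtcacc
Tnf, chr17:35202018-35202057, minus strand, TATAAA: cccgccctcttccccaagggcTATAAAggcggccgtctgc
Tnfsf11, chr14:78308054-78308093, minus strand, TATAAA on the other strand: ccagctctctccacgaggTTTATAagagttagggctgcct

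The NF-kB consensus was present in the windows of 2 of the 7 genes, Lif and Il6, and in 8.46% of all 32851 promoter windows. In Lif it began 178 bases before the start and in Il6 44 bases before it. AP-1 was present in 4 genes, with a further match in Il6 249 bases before the start that is not printed, and in 5.20% of all windows. Il11 and Il15ra each had another window, for another start, without an AP-1 match. A gene with several windows has more places for a match than the single windows behind that share. TATAAA was present in Tnf and Tnfsf11, 29 and 32 bases before the start, and in 13.6% of all windows. The site TGACGTCA, bound by CREB and related factors, and the interferon-stimulated response element, searched as a pattern of 10 letters, matched in 0 of the 7 genes, against 1.79% and 3.44% of all windows. No match says only that these letters are not in this window, and a match is not a measured site. Lif and Il6 shared the NF-kB match; their signals, given next, differed.

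Among the IL-6 family members, Lif rose early and receded on 1 of its 2 probe sets. LIF keeps mouse embryonic stem cells undifferentiated and is an inflammatory cytokine of stromal cells. The Lif probe set 1421207_at had a signal of 36.0 in basal cells and, with TNF, 222 at 0.5 h, 122 by 2 h and 68.7 by 12 h. All 3 TNF arrays were above basal and the signal was highest on the first of them. The ratio to basal was 6.18-fold at 0.5 h, 3.39-fold at 2 h and 1.91-fold at 12 h, the last short of 2-fold. It was the only member probe set with a clear signal on any array. Its second probe set, 1450160_at, gave 5.39, 3.78, 10.9 and 13.0 in the same order, under the floor in basal cells and at 0.5 h. At 0.5 h it therefore gave no ratio, and at 2 and 12 h it was at least 1.20-fold and at least 1.43-fold above basal, short of 2-fold. It did not show the early rise of the first probe set. The log2 signals of the 2 probe sets were also averaged, before the floor was applied. The log2 ratio of Lif was then 1.06 at 0.5 h, 1.39 at 2 h and 1.10 at 12 h, past 2-fold at all 3 times and highest at 2 h. This average takes in signals of 1450160_at under the floor in basal cells and at 0.5 h, so it does not place the peak at 2 h.

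Il6, whose protein drives the acute phase response, showed no call at any time. Its signal was 8.06 in basal cells and, with TNF, 10.2 at 0.5 h, 8.74 by 2 h and 8.30 by 12 h. Only the 0.5 h array lay above the floor, by a ratio to it of 1.13, so this probe set (1450297_at) bounds the change only loosely and does not show that Il6 RNA was absent. Il11, which acts on stromal and megakaryocytic cells, had signals of 2.58 in basal cells and, with TNF, 18.0 at 0.5 h, 3.72 by 2 h and 18.3 by 12 h (1449982_at). The arrays at 0.5 and 12 h were above the floor and the other 2 below it. Its ratio to basal was at least 1.98-fold at 0.5 h and at least 2.01-fold at 12 h, on either side of the rule by a small margin.

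Il15 and the gene of its alpha receptor, Il15ra, were both highest at 2 h. IL-15 sustains natural killer and memory T cells, and the alpha chain binds and presents it. Il15 (1418219_at) had a signal of 27.5 in basal cells and, with TNF, 44.8 at 0.5 h, 86.5 by 2 h and 44.8 by 12 h. All 3 TNF arrays were above basal, and the arrays at 0.5 and 12 h did not differ in the digits printed. The ratio to basal was 1.63-fold at 0.5 h, 3.14-fold at 2 h and 1.63-fold at 12 h, so the gene passed 2-fold at 2 h alone.

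The Il15ra probe set 1448681_at had a signal of 4.12 in basal cells and, with TNF, 41.7 at 0.5 h, 86.4 by 2 h and 32.3 by 12 h. It was under the floor in basal cells and above it on all 3 TNF arrays. It was at least 4.59-fold above basal at 0.5 h, at least 9.52-fold at 2 h and at least 3.56-fold at 12 h. The second probe set, 1422397_a_at, gave 14.8 in basal cells and 24.7, 57.7 and 22.3 with TNF. It followed the same order and was measured on all 4 arrays, with ratios of 1.67-fold, 3.91-fold and 1.51-fold. The 2 probe sets agreed in direction at 3 of 3 times and both passed 2-fold at 2 h; at 0.5 and 12 h only 1448681_at did. The call at those 2 times thus rested on a basal signal under the floor, and it was lost after quantile normalization, where 1422397_a_at stood for the gene (log2 ratios 0.79 and 0.76).

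Csf2 and Tnf rose from under the floor. GM-CSF, the product of Csf2, matures granulocytes and macrophages. Csf2 (1427429_at) had a signal of 3.16 in basal cells and, with TNF, 21.1 at 0.5 h, 31.7 by 2 h and 3.79 by 12 h. Its signal was above the floor at 0.5 and 2 h and below it in basal cells and at 12 h. The ratio to basal was at least 2.32-fold at 0.5 h and at least 3.49-fold at 2 h, and no ratio is given at 12 h, when both sides were under the floor. From 2 to 12 h it dropped at least 3.49-fold.

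Tnf, the endogenous gene of the cytokine that had been added, had a signal of 3.02 in basal cells and, with TNF, 25.3 at 0.5 h, 3.54 by 2 h and 18.1 by 12 h (1419607_at). It was above the floor at 0.5 and 12 h only, the same arrays as Il11. The ratio to basal was at least 2.79-fold at 0.5 h and at least 1.996-fold at 12 h. Such an alternation was not particular to these genes: 228 of the 16274 analysed genes, Il11 and Tnf among them, lay above the floor at 0.5 and 12 h and under it in basal cells and at 2 h. None of the 228 had a clear signal on any array.

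Tnfsf11, encoding RANKL, rose late and stayed up. The probe set 1419083_at had a signal of 9.60 in basal cells and, with TNF, 9.94 at 0.5 h, 44.6 by 2 h and 45.4 by 12 h. The first 2 arrays lay just above the floor and the last 2 well above it, with nearly equal signals. The ratio to basal was 1.04-fold at 0.5 h, 4.64-fold at 2 h and 4.73-fold at 12 h. The second probe set, 1451944_a_at, was under the floor on 3 arrays, at 1.32, 2.14 and 5.94, and reached 11.8 at 12 h. It gave no ratio at 0.5 and 2 h and one of at least 1.31-fold at 12 h, so it did not show the rise of the first at 2 h.

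**Figure D1:**
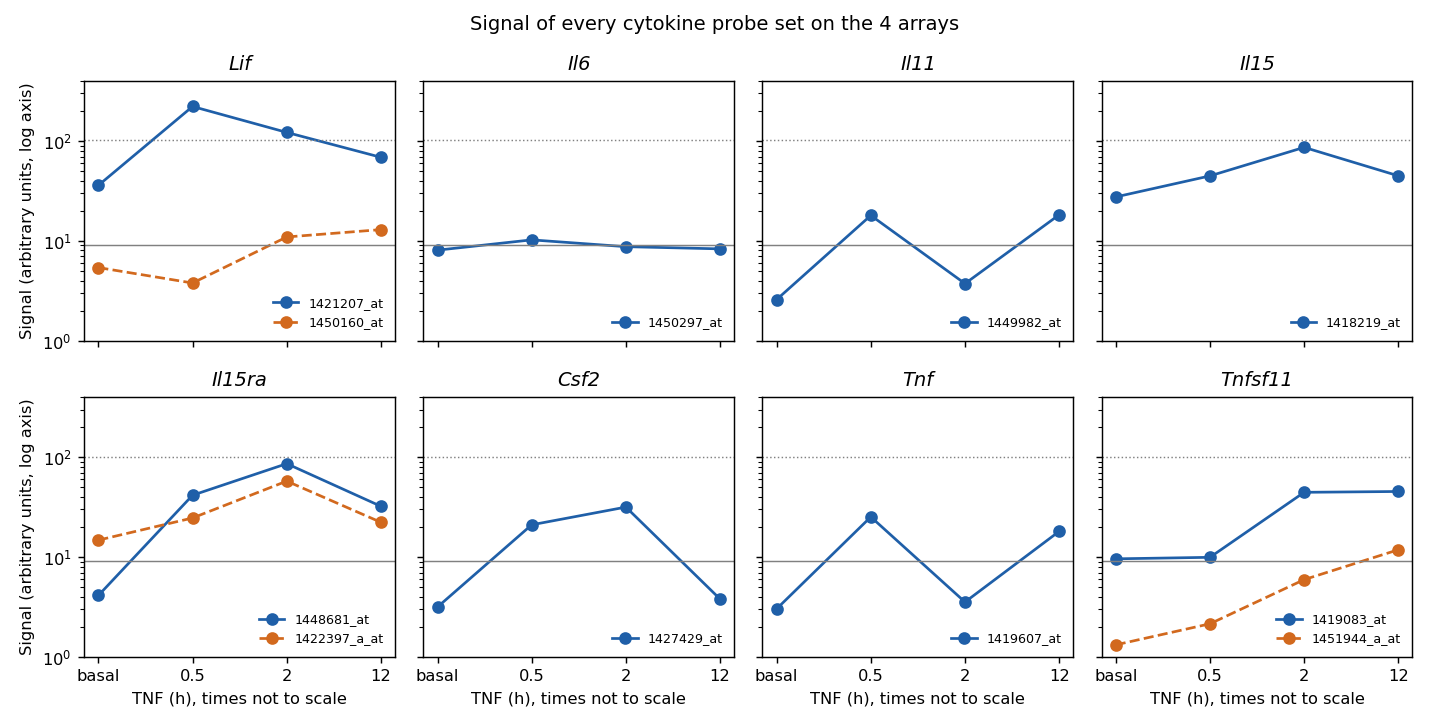
Signal of each of the 11 member probe sets (log axis) in basal cells and after 0.5, 2 and 12 h of TNF, 1 array per point; the solid grey line is the floor (9.07) and the dotted line the start of clear signals (102). Lif peaks at 0.5 h at 222, Il15 and both Il15ra probe sets peak at 2 h, Tnfsf11 reaches 44.6 and 45.4 at 2 and 12 h, and Il6 runs along the floor.

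The first comparison, TNF for 0.5 h against basal, asks which of these genes respond within the first wave. Lif, Il15ra, Csf2 and Tnf rose, 4 of 8 members, and 0 fell. With bounds counted at their value, the 8 log2 ratios had a median of 1.10, against -0.03 over all analysed genes. Il6, Il11, Il15ra, Csf2 and Tnf lay under the floor in basal cells, so TNF arrays alone kept them in the analysis. The member counts and medians at 0.5, 2 and 12 h thus describe these arrays and are no support for a response. Of all genes 2.57% rose and 2.97% fell. The share depended on signal, since 0.438% of genes with a clear signal rose, 4.31% of those without one and 12.6% of the 2007 genes under the floor in basal cells. Lif reached a clear signal only on the arrays at 0.5 and 2 h, so it entered the class of clear signals through its own rise and is not set against that share. By its measured ratio Lif ranked 12th of 16274. Il15ra, Tnf and Csf2 had a basal signal under the floor, so their ratios are bounds and are given no rank.

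At 2 h Lif, Il15, Il15ra, Csf2 and Tnfsf11 rose, 5 of 8, and 0 fell. The median log2 value of the 8 was 1.71 against -0.09 over all genes. It counts bounds at their value and takes Il6, Il11 and Tnf, which had no ratio, as 0. Of all genes 2.59% rose and 3.62% fell; the share that rose was 0.820% among genes with a clear signal, 4.04% among those without and 10.3% among those under the floor in basal cells. By measured ratio Tnfsf11 ranked 25th, Lif 62nd and Il15 78th of 16274, in an order that counts bounds of other genes at their value. The basal signal of Tnfsf11 (9.60) lay just above the floor, and its second probe set gave no ratio at 2 h. Il15ra and Csf2, themselves bounds, are given no rank. The remaining members, Il6, Il11 and Tnf, were under the floor at this time and in basal cells. With the floor raised to the 50th percentile of all values (21.0), Lif, Il15, Il15ra and Tnfsf11 rose, 4 of the 6 members then analysed, and 0.804% of genes did. Only genes above that floor on some array were kept. Il15ra, Csf2, Tnf and Tnfsf11 passed it on TNF arrays alone, so this count is no support and is not set against that share.

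At 12 h Il11, Il15ra and Tnfsf11 rose, 3 of 8, and 0 fell. The median log2 value of the 8 was 0.97 against -0.14 over all genes. It counts bounds at their value and takes Il6 and Csf2, which had no ratio, as 0. Of all genes 2.81% rose and 5.18% fell; 1.03% rose among genes with a clear signal, 4.26% among those without and 11.2% among those under the floor in basal cells. Tnfsf11 ranked 33rd by its measured ratio, from a basal signal just above the floor. The ratios of Il15ra and Il11 are bounds, that of Il11 just past 2-fold. Lif (log2 ratio 0.93) and Tnf (0.9975) were just short of the rule, and both passed it under 3 scalings between arrays. After median centring, quantile normalization and loess the log2 ratio was 1.09, 1.11 and 1.15 for Lif and at least 1.08, 1.075 and 1.05 for Tnf. With the floor at the 20th percentile that of Tnf was at least 1.92. With the floor at the 50th percentile Tnfsf11 was the only member of 6 to rise, and 0.972% of genes did. It passed that floor on TNF arrays alone, so this count is not set against that share.

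**Figure D2:**
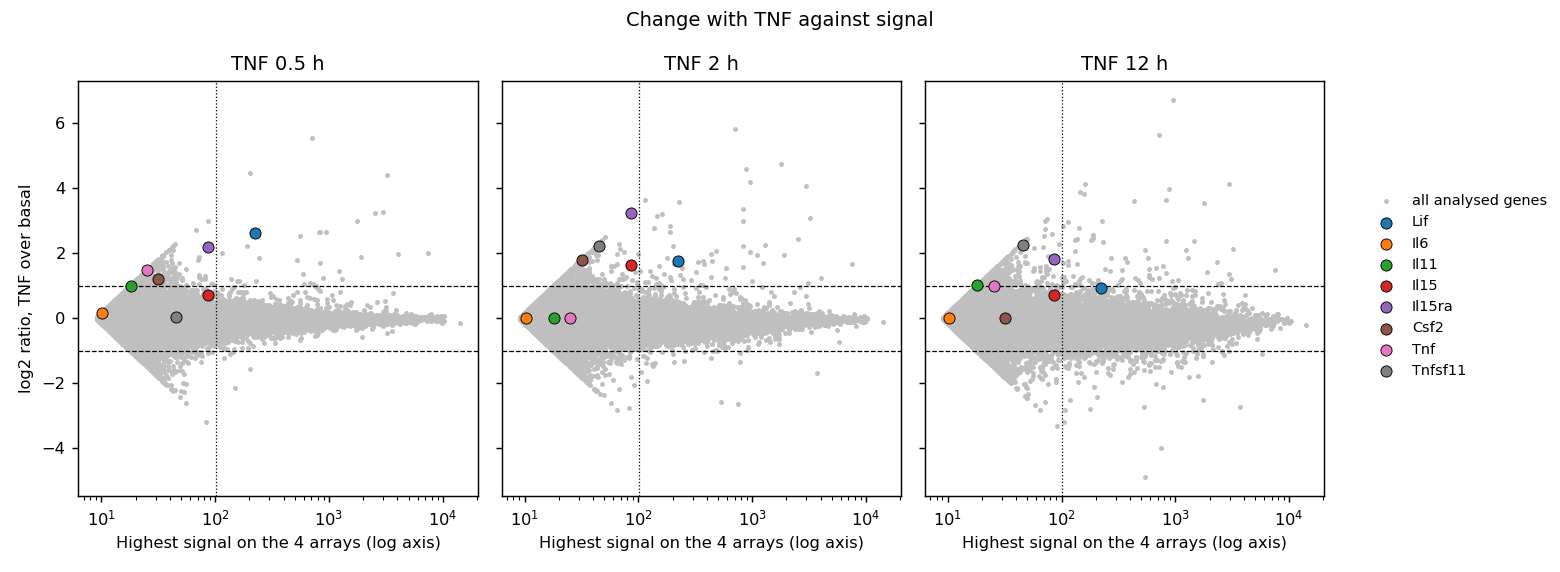
Log2 ratio of TNF over basal against the highest signal on the 4 arrays (log axis) for all 16274 analysed genes (grey) and the 8 members (colours), at 0.5, 2 and 12 h; dashed lines mark 2-fold and the dotted line a signal of 102. The grey cloud widens toward low signal, where all members but Lif lie; Il15ra stands at 3.25 at 2 h and Lif at 2.63 at 0.5 h.

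The members followed different time courses. Of the 7 that rose at some time, Lif and Tnf had their highest signal with TNF at 0.5 h, Il15, Il15ra and Csf2 at 2 h, and Il11 and Tnfsf11 at 12 h. Both peaks at 12 h were near ties on single arrays. Il11 had 18.3 at 12 h and 18.0 at 0.5 h, and Tnfsf11 45.4 at 12 h and 44.6 at 2 h. The 973 genes that rose at some time were split 326, 302 and 345 over the same peaks. In the reported setting Il15ra alone passed 2-fold at all 3 times, a pattern of 0.412% of all genes. Lif and Csf2 rose at 0.5 and 2 h but not at 12 h, shared with 0.332% of genes, and Tnfsf11 rose at 2 and 12 h, shared with 0.473%. The patterns of Tnf (0.5 h alone), Il11 (12 h alone) and Il15 (2 h alone) were more common, at 1.43%, 1.55% and 1.37%. Several patterns changed with the setting. Under the 3 scalings between arrays Lif passed 2-fold at all 3 times and Tnf also at 12 h, and under quantile normalization Il15ra passed it at 2 h alone. Il11 also passed it at 0.5 h with the floor at the 20th percentile (log2 ratio at least 1.91). These shares describe the arrays and do not test the members.

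Between consecutive TNF arrays the genes also moved apart. From 0.5 to 2 h the Lif signal dropped by 0.86 on the log2 scale, while Tnfsf11 rose 4.49-fold and the 2 Il15ra probe sets 2.07-fold and 2.34-fold. Il15 was 1.93-fold and Csf2 1.51-fold higher at 2 than at 0.5 h, short of 2-fold, and Tnf dropped at least 2.79-fold to under the floor. From 2 to 12 h both Il15ra probe sets dropped, by 1.42 and 1.37 (log2), Il15 by 0.95 and Lif by 0.83, while Tnfsf11 differed by 0.03. The second Lif probe set went the other way, 0.25 higher (log2) at 12 than at 2 h. Il15ra and Csf2 thus dropped by 2-fold or more after 2 h, and Tnfsf11 was nearly equal at both times.

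The genes most like Lif in time course were sought among genes with a clear signal, by the Euclidean distance between the 3 log2 ratios over the 4 arrays. The nearest was Irf1, an interferon-response transcription factor gene, at a distance of 0.28, with log2 ratios of 2.66, 2.04 and 0.92 against 2.63, 1.76 and 0.93 for Lif. Nfkbia, encoding the NF-kB inhibitor IkB-alpha, followed at 0.82 and Nfkbiz, an inducible relative of it, at 0.85. Nfkbia stood above Lif at 12 h (1.48) and Nfkbiz below it (0.10). The comparisons share the basal array, so the distances are descriptions only.

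**Figure D3:**
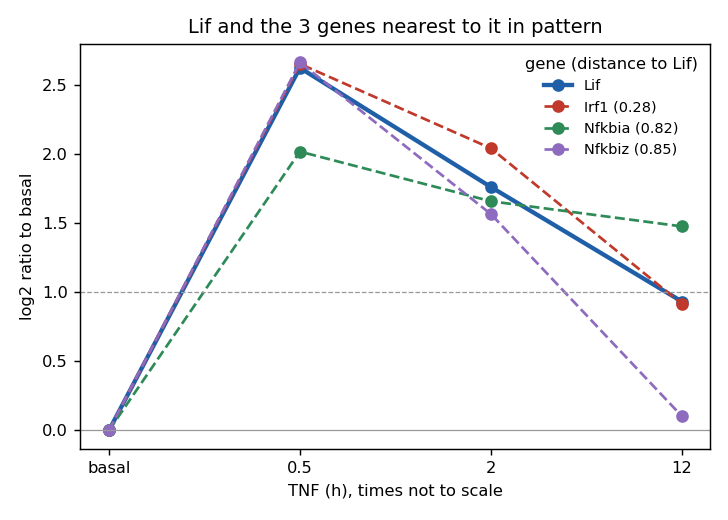
Log2 ratio to basal of Lif (thick line) and of the 3 genes nearest to it, by time of TNF, 1 array per time; the dashed line is 2-fold and the distance to Lif stands in the legend. All 4 genes are highest at 0.5 h, and they separate at 12 h, from 0.10 for Nfkbiz to 1.48 for Nfkbia.

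The 6 ligand lists held 53 further cytokine genes, chosen for their kinship to the members; 31 were analysed, 11 lay under the floor on all 4 arrays and 11 had no probe set named here. Of the 31, 0 rose at 0.5, 2 or 12 h, and 2, 3 and 2 fell; those that fell (Il12b, Cd70, Il12a, Cd40lg, Il1b and Il20) had no clear signal on any array. Over all genes 2.57%, 2.59% and 2.81% rose and 2.97%, 3.62% and 5.18% fell at these times, so counts of 0 to 3 among 31 are close to that background and are no result about these genes. Csf1, the macrophage growth factor gene, had the highest signal of its list, with 1363 in basal cells and, with TNF, 1912 at 0.5 h, 2655 by 2 h and 2024 by 12 h. Its log2 ratio of 0.96 at 2 h was just short of the rule, a further probe set gave 1.01 there, and under each of the 3 scalings 1 gene of this list rose at 2 h. Tslp, a cytokine gene of epithelia and stroma, went the same way below 2-fold, with log2 ratios of 0.51, 0.71 and 0.55. Il1rn, encoding the IL-1 receptor antagonist, had 0.51, 0.31 and 0.87 (a further probe set gave 1.09 at 12 h, and under the 3 scalings 1 gene of its list rose then), and Clcf1, another gp130 ligand gene, 0.42, -0.02 and -0.39.

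The TNF superfamily relatives of Tnfsf11 were low. Of 9 analysed, 0 had a clear signal, and the highest was Eda, a ligand of skin appendage development, with 71.6 at 12 h and 58.6 in basal cells. Tnfsf10, encoding the death ligand TRAIL, alternated as Tnf did, with signals of 6.96, 17.1, 6.66 and 15.6. It passed 2-fold at 0.5 and 12 h when the floor was set at the 20th percentile (4.78).

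Among the receptor chains of the cytokines, 5 genes had a clear signal. Of 13 analysed, 0 rose and 0 fell at any of the 3 times, with median log2 ratios of -0.05, 0.02 and -0.02; at the shares of all genes just given, 0 of 13 is no result about these genes. After median centring and quantile normalization 1 of them rose at 2 h. A floor at the 20th percentile (4.78) also changed the calls. Il2rb, at 4.44 in basal cells, 18.0 at 2 h and 11.6 at 12 h, then passed 2-fold at 2 and 12 h. Cntfr, at 3.84 in basal cells and 13.3 at 0.5 h, passed it at 0.5 h. Il6st, encoding gp130, had signals of 595 in basal cells and, with TNF, 605 at 0.5 h, 656 by 2 h and 993 by 12 h, a log2 ratio of 0.74 at the last time. Tnfrsf11b, encoding osteoprotegerin, the soluble decoy receptor of RANKL, had 377, 358, 634 and 437, with 0.75 at 2 h. Osmr, the oncostatin M receptor chain gene, had 355, 366, 553 and 445, with 0.64 at 2 h, and Lifr had 129, 102, 87.0 and 118. Il2rb, the beta chain for IL-15, left the floor to reach 18.0 at 2 h, and Tnfrsf1a, the main TNF receptor gene, stayed between 437 and 529. Signals of Csf2ra, Csf2rb and Tnfrsf11a, receptor genes of myeloid cells and osteoclast precursors, did not exceed 29.6.

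JAK kinases and STAT factors gave 0 higher and 0 lower calls among 10 analysed genes at each time, again close to the background, and under the 3 scalings 1 of them rose at 12 h. Stat4, at 1.57 in basal cells and 12.1 at 2 h, passed 2-fold there with the floor at the 20th percentile (4.78). Jak1, with the highest signal, had log2 ratios of -0.11, -0.10 and -0.29, and Stat3, which LIF, IL-6 and IL-11 activate, had -0.08, 0.02 and -0.49. Among 16 feedback inhibitors 0 rose at any time, 0 fell at 0.5 and 2 h, and Socs3 and Cbl fell at 12 h. Socs3, which STAT3 induces and whose protein blocks gp130, had signals of 266 in basal cells and, with TNF, 173 at 0.5 h, 337 by 2 h and 131 by 12 h (1455899_x_at). Its log2 ratio at 12 h was -1.02, but its other probe sets gave -0.23 and -0.53 there. Cbl, a ubiquitin ligase gene, fell by 1.69 to 79.0 at 12 h, while its other probe sets gave -0.24 and -0.59. Over all genes 5.18% fell at that time, so 2 of 16 is to be read beside that share, and under each of the 3 scalings 1 of the 16 fell. Ptpn11, a phosphatase gene with the highest signal in the list, had log2 ratios of -0.03, -0.01 and -0.07.

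**Figure D4:**
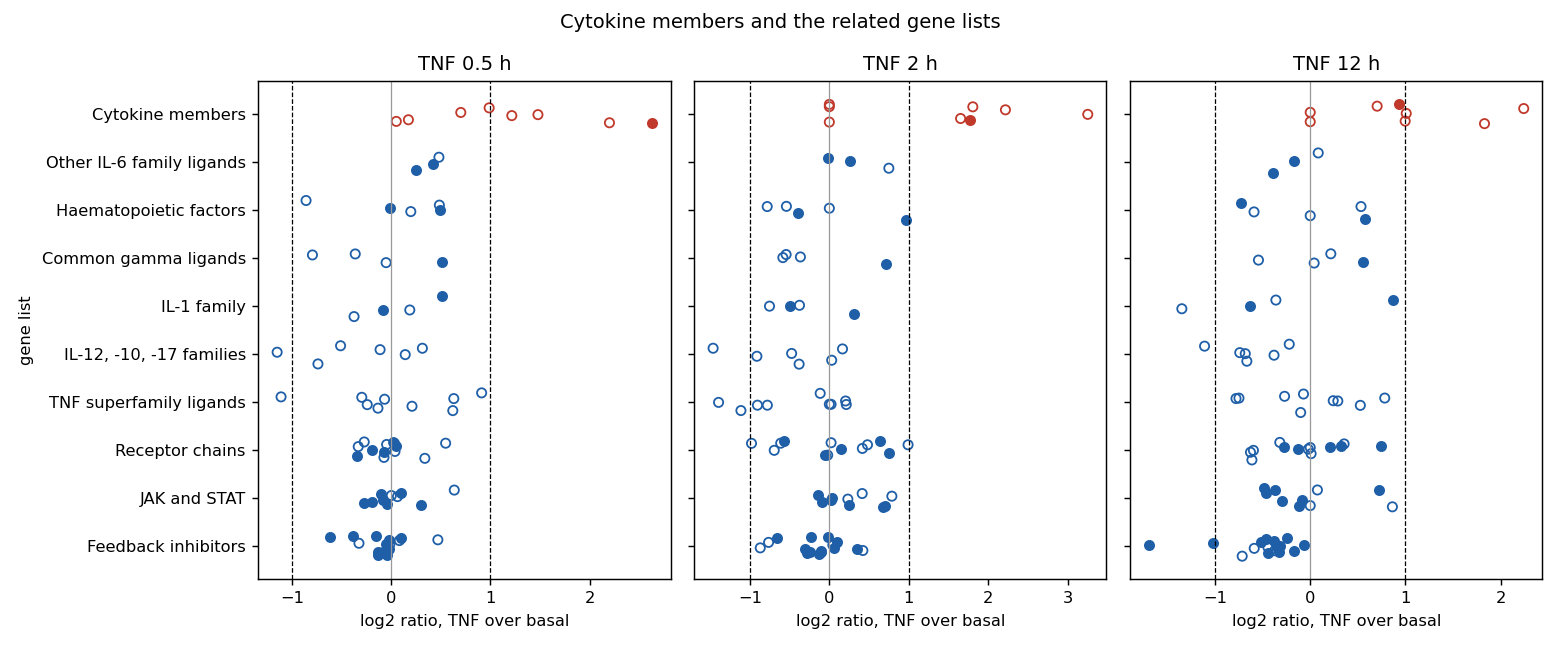
Log2 ratio of TNF over basal for the 8 members (red) and the genes of the 9 related lists (blue) at 0.5, 2 and 12 h; filled points have a clear signal, open points do not, and dashed lines mark 2-fold. With the floor at 9.07 and no scaling between arrays, points beyond the right-hand line are members only. With the floor at the 20th percentile Tnfsf10, Il2rb, Cntfr and Stat4 also pass 2-fold upward. Of all analysed genes 2.57%, 2.59% and 2.81% rose at these times, so the lack of list genes there is no result about them. At 12 h Socs3 and Cbl lie beyond the left-hand line in the feedback inhibitors.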

How the data were processed

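RNA of mouse 3T3 fibroblasts was hybridised to Affymetrix mouse expression arrays from 8 µg of total RNA, per the labels' protocols. Each deposited value is a probe set's intensity on a linear scale; which algorithm made it, and whether arrays were scaled, is not given in the sources used here. Groups came from the sample titles, 1 array each, so 0 tests were run. The 64 control probe sets were left out of floors and ratios. GEO's platform annotation gave 1 gene for 34945 probe sets, several for 932 and none listed for 9160, and named a gene only from the first kind; all 8 member symbols were found in the RefSeq table of GRCm38.p6.

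Signals were raised to the floor and log2 ratios taken with no further scaling. Each gene was represented by 1 probe set, that of highest mean log2 intensity, and genes at the floor on all arrays were left out. Alternatives were other floors, median centring, quantile normalization and cyclic loess (limma 3.58.1 in R 4.3.3), other rules for probe sets, and rules of 1.5-fold and 3-fold. Computation used Python 3.11.15, numpy 2.4.6 and pandas 2.3.3, and the calling step was tested on simulated data. The number of arrays limits the precision.

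All members were named. From the related lists the naming rule took genes past 2-fold with a clear signal and the gene of highest signal in each list; other list genes, and the low ones that fell, were named after their values were seen. Members and lists were chosen with earlier results of these data known.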

Additional observations from a re-analysis of the deposited data

How the results depend on the processing

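The counts of members that rose depended on the floor, on the scaling and on the fold rule. With the floor at the 50th percentile 1 member rose at 0.5 h (Lif; 0.482% of genes) and 1 at 12 h (Tnfsf11; 0.972%), against 4 and 3 with the floor at the 30th; at the 75th percentile the counts were 1, 0 and 0 at the 3 times (0.328%, 0.479% and 0.615% of genes), with 1 member, Lif, analysed. These floors remove low members by construction, and at the 50th percentile, as at the 30th, some members are kept only through their TNF arrays. At 12 h 5 members rose with median centring (3.82% of all genes), 5 with cyclic loess (3.87%) and 6 with the 1.5-fold rule (7.61%), against 2.81% of genes in the reported setting. At 0.5 h 2 rose with the 3-fold rule (0.492%), against 2.57%. The other alternatives left the counts within 1.5 times, and 0 members fell under any setting. Counts for the related lists depended more on a lower floor than on scaling. With the floor at the 20th percentile 14 of them moved by more than 1.5 times, or to or from 0, and 40 did not. Without a floor 23 moved and 31 did not, and each scaling moved 6 or 7. The 1.5-fold rule moved the most list counts, 27, and left 27. Quantile normalization made 1422397_a_at the probe set of Il15ra, whose log2 ratios were then 0.79, 2.08 and 0.76. Averaging over the probe sets of each gene gave Lif 1.06 at 0.5 h, 1.39 at 2 h and 1.10 at 12 h, which moved its highest ratio to 2 h and added it to the calls at 12 h, and took Tnfsf11 out of the calls at 2 h. Of 297 ratios of single probe sets under the alternatives, 252 kept their side of the rule, 24 newly passed it, 21 no longer did and 0 of the called ones changed sign. No paired analysis was possible because each group held 1 array.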

Other observations

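Genes near the other members in time course were also looked up, outside the naming rule because these members lacked a clear signal, so they were chosen after the values were seen. The nearest to Il15 was Tnfaip2 (distance 0.33), with log2 ratios of 0.45, 1.76 and 0.89 at 0.5, 2 and 12 h, against 0.70, 1.65 and 0.70 for Il15. Members whose basal signal was under the floor were left out, since distances to bounds are not defined. The nearest to Tnfsf11 was Gch1, encoding the first enzyme of tetrahydrobiopterin synthesis (0.48). Gch1 had signals of 30.5 in basal cells and, with TNF, 31.0 at 0.5 h, 190 by 2 h and 168 by 12 h, so it too was flat at 0.5 h and high at 2 and 12 h. Birc3, an inhibitor of apoptosis gene, followed at 0.87, with signals of 115, 87.2, 370 and 379.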
